A study of Schmidtea mediterranea with 15 samples.

Results

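Whole intact juveniles were set against freshly cut trunk fragments (day 0) of the planarian flatworm Schmidtea mediterranea, using the 3 juvenile and the 3 day 0 RNA libraries of a series of 15. The 6 libraries were picked by their labels, not by a measured value. The comparison itself was chosen with earlier results of these data known. All 15 came from the biotype that the labels give as Sexual S2F2, and the labels name no other treatment, genotype or age for either group. Juveniles were whole animals that had not been cut, while day 0 fragments were trunks taken with no time to regenerate, so body part and stage differed together and cannot be told apart. The other 9 libraries, 3 each from trunks after 3, 5 and 7 days of regeneration, entered the estimate of the spread between replicates and are otherwise shown, without a test, beside the juvenile and day 0 values of single records and a few small sets. The labels do not say whether a library held 1 animal or a pool, or whether replicates came from separate animals, so a p-value here speaks of the spread among these libraries, part of which may be technical.

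Planarians rebuild missing parts from a body-wide population of dividing stem cells. Animals of the sexual biotype are hermaphrodites that hatch without a mature reproductive system and form testes, ovaries, yolk glands and copulatory organs as they grow. The head carries the brain and the eyes, which a trunk piece lacks, whereas the trunk holds the pharynx and much of the gut. In RNA from whole bodies or fragments, fewer cells of a type and less RNA per cell cannot be told apart.

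RNA was measured as read counts per sequence record of a transcript collection, and most records had identifiers of 1 transcriptome assembly. The file pairs no identifier with a gene name or a sequence, so the labelled tissues could not be checked against marker genes, and the lists of germ cell, eye, nerve, muscle, gut and stem cell genes could not be matched. Several records can stand for 1 gene, so counts of records are not counts of genes. Total counts were 25735815 to 37791352 in juveniles and 20338464 to 34569921 at day 0, and 46736 of 92053 records had enough counts to be tested. Levels are given as CPM, counts scaled to a common library size with TMM factors (trimmed mean of M-values). Record lengths were not in the file, so a level in CPM is not adjusted for length. Between libraries, the correlation of log2 CPM across the tested records was 0.982 to 0.985 among juveniles, 0.969 to 0.979 among day 0 libraries and 0.832 to 0.893 between the groups. The median record differed by 0.22 ± 0.01 on the log2 scale between a pair of juvenile libraries and by 0.28 ± 0.05 between a pair of day 0 libraries (mean and SD over 3 pairs each).

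The difference between juveniles and day 0 trunks was lopsided in size. In juveniles 5661 records were higher (12.1% of those tested) and 8869 were lower (19.0%) at an adjusted p under 0.05 in edgeR's quasi-likelihood test. Among the higher records 4277 (75.6%) differed by less than 2-fold, and 16 differed by 32-fold or more. Among the lower records 4270 (48.1%) differed by less than 2-fold, and 1948 by 32-fold or more. The median log2 fold change, juvenile over day 0, was 0.66 over the higher records and -1.09 over the lower ones. Where a group had no count in any of its 3 libraries, a fitted fold is not a bound, and with such groups set to 3 counts over the group the records at 32-fold or more were 13 higher and 1793 lower.

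The lower records did not thin out evenly with size. Their number per 0.5 log2 units lay between 226 and 306 in each step from -2 to -5, reached 360 between -6 and -5.5, and declined beyond that. Higher records had no second rise of this size, with 64 between 4-fold and 8-fold and 20 between 8-fold and 32-fold.

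**Figure D1:**
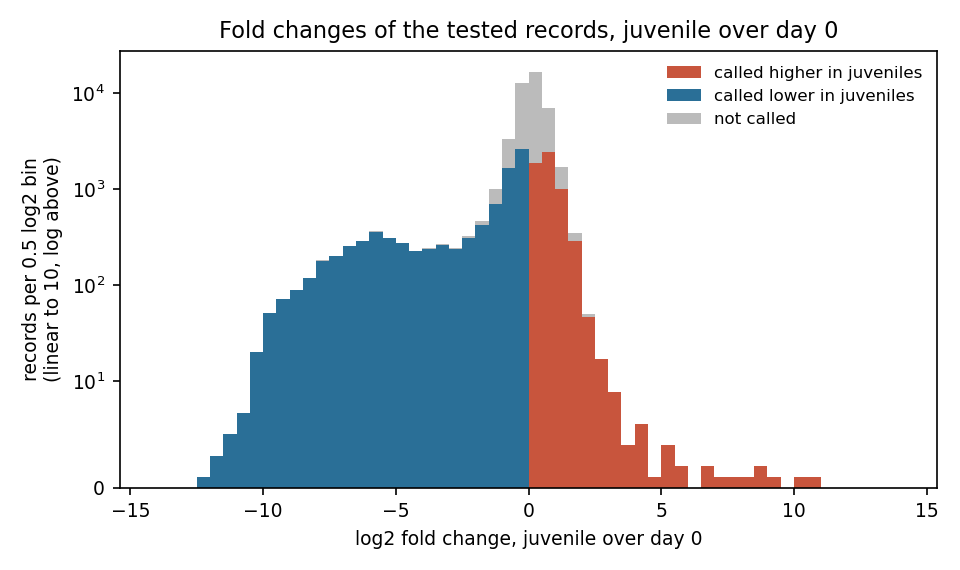
Log2 fold change (x axis, juvenile over day 0) of the 46736 tested records, as the number of records per 0.5 log2 units (y axis, linear to 10 and logarithmic above), stacked by edgeR call. Records called lower in juveniles show a second rise that peaks at 360 between -6 and -5.5, while records called higher fall off steeply, with 100 at 4-fold or more.

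How the small differences split into higher and lower calls depended on how the libraries were scaled. With library totals alone, 14907 records were higher and 5651 lower in juveniles, so that 72.5% of calls were higher, against 39.0% with TMM. Upper-quartile factors gave 80.5% higher (19302 higher and 4668 lower). These scalings moved the median log2 fold change of all tested records by 0.28 and 0.44 from its value of 0.06 under TMM. The call was the same under TMM, relative log expression, upper-quartile factors and library totals for 5003 of the 5661 higher records (88.4%) and 4618 of the 8869 lower ones (52.1%), and 111 of the lower ones were called higher under at least 1 of the 4. For records at 4-fold or more, all 100 higher and 3478 of 3490 lower ones kept their call under all 4.

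By size, 1384 records were at least 2-fold higher in juveniles (2.96% of those tested) and 4599 at least 2-fold lower (9.84%). When the test itself was set against a 2-fold change (edgeR's glmTreat), 129 were higher and 3190 lower. At 4-fold or more, 100 were higher (0.214%) and 3490 lower (7.47%). In 97 of the 100 and 3477 of the 3490 the 3 juvenile libraries did not overlap the 3 day 0 libraries. These sets were chosen on the same libraries, and over all tested records the groups did not overlap in 20.1% with juveniles higher and 22.3% with juveniles lower.

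How often a record was called also differed with its level over the 6 libraries, though not steadily in 1 direction. Below 0.3 CPM 4.49% of 8217 records were higher and 4.41% lower in juveniles. Of 3644 records from 30 to 100 CPM, 548 were higher and 1641 (45.0%) lower. At 300 CPM and above 19.3% of 410 records were higher and 36.6% lower. At 100 CPM and above, 215 of 253 higher and 467 of 667 lower records differed by less than 1.5-fold. These shares are under TMM, and how such small differences split into higher and lower depends on scaling, as given above. Differences of 4-fold or more had another profile: lower ones reached their largest share, 15.8%, between 3 and 10 CPM, and higher ones theirs, 0.608%, below 0.3 CPM. No record averaging 100 CPM or more over the 6 libraries was at least 4-fold higher in juveniles, while 70 of 1527 were at least 4-fold lower.

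**Figure D2:**
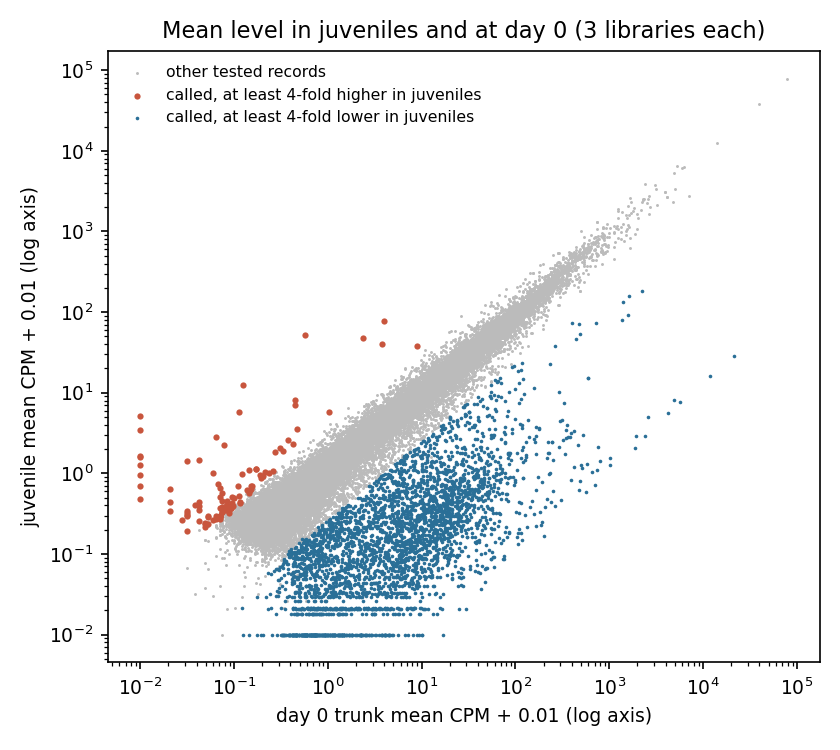
Mean level in 3 juvenile libraries (y axis) against the mean in 3 day 0 libraries (x axis) for the 46736 tested records, in CPM plus 0.01 on log axes. The 3490 records called at least 4-fold lower in juveniles form a cloud below the diagonal that reaches 21520 CPM at day 0, while the 100 called at least 4-fold higher lie mostly under 10 CPM.

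Records at least 4-fold lower in juveniles took 0.344%, 0.263% and 0.380% of the counts in juvenile libraries 1, 2 and 3, against 10.5%, 12.2% and 13.7% in day 0 libraries 1, 2 and 3. They were a large part of the trunk's RNA and a trace in juveniles in each of the 6 libraries. Their median record stood at 0.142 CPM in juveniles and 5.47 CPM at day 0, and 34 of them in juveniles, against 1227 at day 0, reached 10 CPM. Their counts were concentrated: 50.1% of the set's day 0 level came from its top 16 records and 69.5% from its top 100. Without day 0 replicate 3 the set had 3155 records, and over all single libraries left out it ranged from 3155 to 3809. Fits with a library left out reran the filter on low counts with a smaller group, which asks for fewer libraries per record. Without a single day 3, day 5 or day 7 library the set had 3657 to 3745 records, a nearer reference for the 3155.

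Records at least 4-fold higher in juveniles took 0.0435%, 0.0441% and 0.0329% of the counts in juvenile libraries 1, 2 and 3, against 0.00294%, 0.00216% and 0.00299% in day 0 libraries 1, 2 and 3. They were scarce in both groups, with a median of 0.503 CPM in juveniles and 0.0661 CPM at day 0. Only 6 of the 100 reached 10 CPM in juveniles, and these 6 held 73.0% of the set's juvenile level. The number of records in this set was not stable. It was 198, 278 and 260 without day 0 replicate 1, 2 or 3, 156 without day 3 replicate 2 and 159 without day 5 replicate 2. Leaving out any 1 of the 15 libraries gave between 132 and 278, so all 15 values lay above 100. These fits also reran the filter on low counts in its looser form, so each value mixes library and filter. Without a single day 3, day 5 or day 7 library the set had 138 to 159 records, and without a single juvenile library 132 to 145. These are nearer references for 198, 278 and 260 than the 100 is. The number was 61 when day 0 and juvenile libraries were fitted alone, 27 with a minimum count of 50 and 316 without a filter on low counts.

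**Figure D3:**
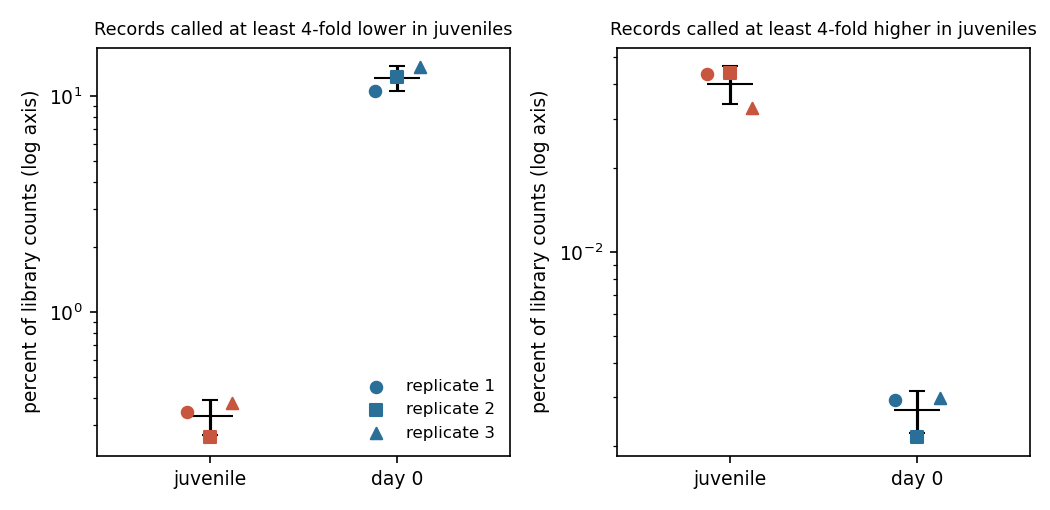
Percent of each library's counts (y axis, log) in the records called at least 4-fold lower (left panel) and at least 4-fold higher (right panel) in juveniles, for 3 juvenile and 3 day 0 libraries, with the mean and SD. The lower set spans 0.263% to 0.380% in juveniles and 10.5% to 13.7% at day 0, and the higher set 0.0329% to 0.0441% in juveniles and 0.00216% to 0.00299% at day 0. The sets were chosen on these libraries.

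Small differences, whose split into higher and lower calls depends on scaling as given above, summed to large shares. Under TMM, records called higher by less than 2-fold took 16.7% ± 0.110 of the counts in juveniles and 10.5% ± 0.0481 at day 0, and those called lower by less than 2-fold took 25.9% ± 0.307 in juveniles and 28.9% ± 0.741 at day 0 (SD, n = 3 each). Records that were not called took 54.2% ± 0.315 of the counts in juveniles and 44.7% ± 0.970 at day 0. A share of a library is relative: where 1 set takes less, the others take more.

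The most abundant records were largely common to both groups. Of the top 10 by share of counts, 6 were common to the juvenile and the day 0 list, of the top 100, 72, and of the top 1000, 846. Among the 100 most abundant at day 0, 16 were at least 4-fold lower in juveniles, and of the juvenile top 100, 0 belonged to either 4-fold set. The 100 most abundant records took 32.04% ± 0.968 of the counts in juveniles and 33.3% ± 1.67 at day 0 (SD, n = 3 each), a difference smaller than the SD at day 0.

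The 16 most abundant records of the lower set, each at 1000 CPM or more at day 0, fell into 2 parts by how much was left in juveniles. In 11 of them, juveniles held between 0.111% and 0.191% of the day 0 level, although the day 0 levels themselves ranged from 1013 to 21520 CPM. Folds of these 11 ran from 529 to 907. In the other 5, juveniles held between 5.94% and 9.80%, with folds from 10.2 to 16.8.

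The trace of the 11 records differed between juvenile libraries. As a percentage of their summed mean level at day 0, it was 0.170%, 0.0962% and 0.149% in juvenile libraries 1, 2 and 3. Library 2 was the lowest for all 11 records. It was also the lowest for all 5 records of the other part, which summed to 8.67%, 5.05% and 10.1% in these libraries. A low library 2 is thus not particular to the 11. In raw reads the 11 had 2863, 2297 and 2734 counts in these libraries, although library 2 was the deepest, with 37791352 counts in total. Whether these reads include carry-over from other libraries was not tested. If they do, the juvenile levels and the folds of these 11 records do not measure juvenile RNA alone.

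Across the 15 libraries the sums of the 2 parts went different ways. A sum weighs its most abundant records most, which among the 11 averaged 21520 and 11883 CPM at day 0. It does not show that each record followed it. The 11 records summed to 81.7 ± 22.5 CPM in juveniles and 59042 ± 12072 CPM at day 0, and to 25493 ± 5265, 16324 ± 4440 and 8054 ± 5786 CPM at days 3, 5 and 7 (SD, n = 3 each). The other 5 summed to 649 ± 213 CPM in juveniles and 8173 ± 745 CPM at day 0, and to 18394 ± 1917, 22138 ± 2716 and 28631 ± 5446 CPM at days 3, 5 and 7. The lowest day 7 sum of the 5, 24421 CPM, lay above their highest day 0 sum of 8767 CPM. These parts were defined by the juvenile and day 0 values, and the later days are given without a test.

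Over the 125 records of the lower set at 100 CPM or more at day 0, the part left in juveniles had no single value. It was between 0.1% and 0.2% for 34 records, between 0.2% and 1% for 39, and 1% or more for 51, while 1 was below 0.1%. At lower day 0 levels more was left, with a median of 1.61% among 346 records of 30 to 100 CPM and 4.13% among 1338 records under 3 CPM, where a juvenile level often rested on few reads (a median of 4 counts over the 3 juvenile libraries).

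**Figure D4:**
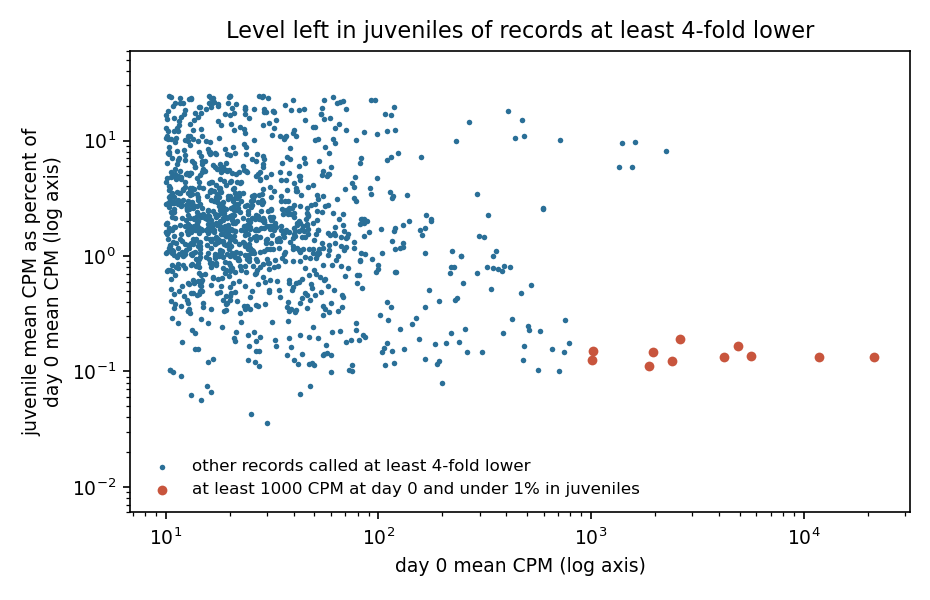
Juvenile mean CPM as a percentage of the day 0 mean (y axis, log) against day 0 mean CPM (x axis, log) for records called at least 4-fold lower in juveniles with 10 CPM or more at day 0; 3 of the 1227 with no juvenile count are not drawn. The 11 most abundant records with under 1% left lie in a band from 0.111% to 0.191%, while at 10 to 100 CPM the values spread from under 0.1% to 24.5%.

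The 3 day 0 libraries did not carry the lower set equally. Day 0 library 3 was the highest of the 3 for 2981 of the 3490 records (85.4%), and at least 2-fold above both others for 2553 (73.2%). Outside this set it was that high for 1023 of 43246 records (2.37%). The 2553 records took 0.144%, 0.131% and 0.167% of the counts in juvenile libraries 1, 2 and 3, against 2.28%, 2.27% and 6.51% in day 0 libraries 1, 2 and 3. These records were picked as high in library 3 and as lower in juveniles, so the order of these shares follows from the choice and only their sizes describe the libraries.

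Measured against day 0 libraries 1 and 2 alone, 2336 of the 2553 were still at least 4-fold lower in juveniles by their mean CPM. The remaining 937 records of the set took 0.200%, 0.132% and 0.214% of the counts in juveniles and 8.27%, 9.95% and 7.16% at day 0, where library 2 was the highest. Day 0 library 2 was the highest for all 11 of the abundant records described above. What distinguishes day 0 library 3 was not tested.

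Some records were read in each library of 1 group and in no library of the other. With at least 10 counts in every day 0 library and none in any juvenile library there were 148 records, and in the other direction 8. Set against 3 counts over the juvenile group (0.0300 CPM), the 148 were at least 14.1-fold to 565-fold lower in juveniles, with a median bound of 46.5-fold. Their day 0 levels ranged from 0.424 to 16.9 CPM. All 148 had counts in each day 3 library and 106 in each day 7 library.

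The 8 records with no day 0 count stood at 0.477 to 5.15 CPM in juveniles. Against 3 counts over the day 0 group (0.0371 CPM) they were at least 12.9-fold to 139-fold higher in juveniles, and the highest had up to 254 counts in 1 juvenile library. In trunks, 2 of the 8 had counts in each day 3 library, and all 8 in each day 5 and each day 7 library. These numbers depend on depth: with at least 5 or 30 counts per library they were 276 or 44 for day 0 and 9 or 5 for juveniles. With a library left out they can only stay or rise, since fewer libraries have to meet the rule. Without day 0 replicate 1, the shallowest library, 241 records met the rule for day 0, and without juvenile replicate 3 there were 259.

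The most abundant record of the higher set was GDAG01004775.1. It stood at 87.3, 85.2 and 57.5 CPM in juvenile libraries 1, 2 and 3, against 3.60, 3.14 and 5.04 CPM in day 0 libraries 1, 2 and 3. All 3 juvenile libraries lay far above all 3 day 0 libraries, and juvenile library 3 was the lowest of its group. It was 19.4-fold higher in juveniles (log2 fold change 4.28, SE 0.29, edgeR adjusted p = 1.97e-06). In regenerating trunks it averaged 15.2 ± 4.27, 77.0 ± 14.2 and 158 ± 1.63 CPM at days 3, 5 and 7 (SD, n = 3 each), so that every day 7 library lay above every juvenile one.

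GDAG01019277.1 had the smallest adjusted p of the higher set. It was even among juveniles, at 7.01, 7.14 and 6.77 CPM, against 0.317, 0.513 and 0.487 CPM at day 0, where the 3 libraries had 6, 16 and 15 counts. The log2 fold change was 3.94 (SE 0.21, edgeR adjusted p = 1.32e-09), or 15.4-fold. At days 3, 5 and 7 it averaged 0.550 ± 0.0825, 1.43 ± 0.0425 and 2.14 ± 0.527 CPM (SD, n = 3 each), and no day 7 library reached the lowest juvenile value.

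GDAG01027988.1 was the most abundant record of the lower set. Its levels were 35.9, 19.6 and 31.0 CPM in juvenile libraries 1, 2 and 3, against 21013, 26771 and 16777 CPM in day 0 libraries 1, 2 and 3. It was 748-fold lower in juveniles (log2 fold change -9.55, SE 0.72, edgeR adjusted p = 5.21e-06), and it is 1 of the 11 records with a trace between 0.111% and 0.191%, so the same limit applies to this fold. It averaged 10378 ± 2259, 6755 ± 2052 and 3412 ± 2728 CPM at days 3, 5 and 7, where day 7 library 1, at 6523 CPM, was well above the other day 7 libraries at 1430 and 2283 CPM.

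GDAG01016573.1 had the smallest adjusted p of all tested records. It had 1, 1 and 2 counts in juvenile libraries 1, 2 and 3, against 400, 828 and 820 counts at day 0. The juvenile to day 0 ratio of the summed counts, scaled to library size, was 0.00158 (95% exact interval 0.000430 to 0.00405), an interval that covers counting error only. The edgeR log2 fold change was -9.16 (SE 0.22, adjusted p = 1.94e-13). This SE comes from the test statistic and is narrower than the exact interval allows. For counting error, the interval is therefore the better guide to this fold. The edgeR fold of 574 lies within the 529 to 907 of the 11 abundant records described above. Whether the 4 juvenile counts include carry-over from other libraries was not tested either, and the interval does not cover it. Its day 0 levels were 21.2, 26.5 and 26.6 CPM in libraries 1, 2 and 3, so library 3 did not stand out as it did for most of the lower set.

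**Figure D5:**
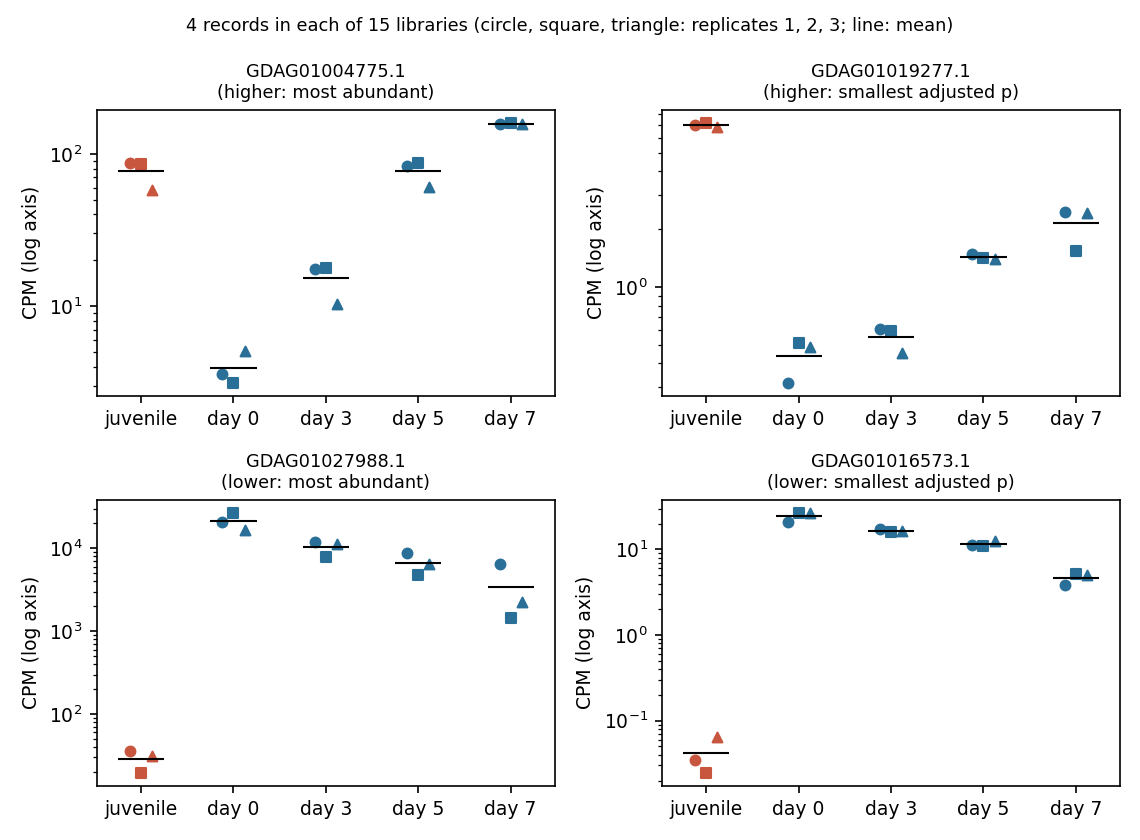
CPM (y axis, log) of 4 records in each of the 15 libraries, by group (x axis), with the group mean as a line. Both records in the upper row are higher in all 3 juvenile libraries than in all 3 day 0 libraries, and both in the lower row are lower; at day 7 GDAG01004775.1 lies above juveniles and the other 3 lie between juveniles and day 0.

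Records with identifiers from outside the transcriptome assembly could be read apart from the rest, since their identifiers have other formats. Of 513 such records tested, 143 (27.9%) were higher in juveniles and 140 (27.3%) lower, against 11.9% and 18.9% of the 46223 assembly records. They were more abundant than assembly records, with a median of 11.6 CPM over the 6 libraries against 1.02 CPM. Between 10 and 100 CPM, 23.8% of 223 were higher and 28.7% lower, against 15.6% and 40.8% of 8667 assembly records. Among the 513, 5 were at least 4-fold higher and 24 at least 4-fold lower in juveniles. Among the 46223 assembly records these numbers were 95 and 3466, and over all tested records the shares were 0.214% and 7.47%. Such a record may have a near-identical copy among the assembly records, which was not tested here, and no source used here says how shared reads were divided, so 1 transcript may enter these counts more than once.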

How the data were processed

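The authors deposited raw counts of reads for each sequence record in each library; the values are whole numbers whose totals differ. Libraries were made from poly(A) RNA with a TruSeq kit, per the labels' protocols. Bowtie2 was used, per the submitters' processing notes; no source used here gives its version, the counting tool, the sequence set or a filter. This kit does not mark strand, so overlapping antisense transcripts cannot be told apart.

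Groups came from sample titles. Records were filtered by filterByExpr over the 5 groups (at least 10 counts, total of at least 15), which kept at least 99.6% of each library's counts. TMM factors were 1.07 to 1.12 in juveniles and 0.893 to 0.933 at day 0. edgeR 4.0.16 (R 4.3.3, limma 3.58.1) fitted all 15 libraries by robust quasi-likelihood with a group term and no other (residual degrees of freedom, 10); p-values were adjusted by Benjamini-Hochberg over 46736 records and called under 0.05. SE is the log2 fold change divided by the square root of F, which can understate the error where a group has few counts. Log2 CPM used a prior count of 2. The fit was tested on simulated data. No replicate pair was a duplicate: the squared difference, averaged over records, was at least 5.38 times that of counting noise. Of the 92053 rows, 1298 repeated an earlier row.

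Alternatives were other scalings, filters, DESeq2 1.42.0, fits of the 6 libraries alone, a replicate block, collapsed rows and single libraries left out. The rule for named records took, in each direction among records at least 4-fold apart, the most abundant and the one with the smallest adjusted p. The comparison, lists and rules were chosen with earlier results of these data known.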

Additional observations from a re-analysis of the deposited data

How the results depend on the processing

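The counts of records lower by at least 4-fold (2333 to 4658) and their shares of counts stayed within 1.5 times or 1 SD of the reported values under all alternatives tried. Calls in each direction did too, except under upper-quartile factors (19302 higher and 4668 lower) and library totals (14907 and 5651); these gave 6763 and 3927 records at least 2-fold higher and 369 and 203 at least 4-fold higher, which took 0.0760% and 0.0573% of the counts in juveniles and 0.0116% and 0.00670% at day 0. glmTreat gave 129 records at least 2-fold higher. A minimum count of 50, which tests fewer records, gave 507 at least 2-fold higher, 2948 at least 2-fold lower and 27 at least 4-fold higher; no filter gave 316 at least 4-fold higher. The 6 libraries alone gave 61, with or without the replicate block. A joint removal, chosen after seeing the data, of the third libraries of day 0 and day 3 with the second of day 7 gave 243, with shares of 0.0469% in juveniles and 0.00356% at day 0; the causes were not tested. With single libraries left out, calls ranged from 4338 to 5601 higher and 7931 to 9205 lower, those of 2-fold from 1200 to 1457 and 4014 to 4948, those of 4-fold from 132 to 278 and 3155 to 3809, shares of the higher set from 0.0400% to 0.0474% in juveniles and 0.00284% to 0.00362% at day 0, and records read in 1 group from 154 to 259 for day 0 and 8 to 10 for juveniles; thresholds of 5 and 30 counts, chosen after seeing the data, gave 276 and 44 for day 0, and 30 counts gave 5 for juveniles. Scalings and tests do not enter those counts, and leaving a library out can only keep or raise them. Fits with a library left out also reran the filter on low counts. Their ranges of calls and shares mix library and filter. The median difference between juvenile libraries was 0.233 with a prior count of 0.5, 0.132 over records of at least 1 CPM and 0.214 to 0.233 with 1 library left out; at day 0 it was 0.173 over such records and 0.236 to 0.331.

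Same-numbered juvenile and day 0 libraries correlated at 0.0415, 0.0266 and 0.101 in their deviations from group means. For juvenile libraries 1 and 3 this was the highest value, while juvenile library 2 correlated better with day 0 library 1 (0.0389). The labels state no pairing, so the numbers were not taken as pairs. With the replicate block in the fit of all libraries, 5391 records were higher and 8963 lower. The 4 named records kept their direction and call under all 26 alternatives run for each, with a highest adjusted p of 0.00232 (GDAG01027988.1).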
